A study of Ovis aries with 5 samples.

Results

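JUNB, JUND and FOS encode subunits of AP-1, a transcription factor that binds DNA as a dimer of JUN proteins or of a JUN and a FOS protein. All probes on the array that the files assign to these genes, by gene name or by description, were taken: 5 of 15008 distinct probes, with 2 for JUNB, 1 for JUND and 2 for FOS, which the files write as C-FOS. The samples were dendritic cells (DC) of sheep skin lymph, the antigen-presenting cells that migrate out of the skin, in 3 groups. CD26+ DC, sorted as CD1b+CD26+ cells, came from sheep 30066 and sheep 10081 (2 arrays). CD26- DC, sorted as CD1b+CD26- cells, came from the same 2 sheep (2 arrays). Total DC, enriched from lymph of further sheep, served as the common Cy5 reference on every array and was hybridized against itself on 1 array, called the self-hybridization below. The labels give no age and no treatment other than the sort, and do not say how many animals made up the reference. They also conflict: the labelling protocol names a cultured cell line, LP-1cl1, as the Cy5 reference, while the sample fields call it lymph DC.

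FOS and JUNB belong to the immediate early genes, which are transcribed within minutes of a stimulus without new protein synthesis and whose transcripts are short-lived. JUND is the JUN family member with the steadier expression in most cells studied. In DC, AP-1 takes part in the expression of cytokine and costimulatory genes after activation. In mouse tissues the same genes are also known to rise while cells are dissociated and sorted. Here the subsets were sorted and came from sheep 30066 and 10081, whereas the reference was labelled as enriched and came from other animals, so sorting, animal and subset cannot be told apart in any comparison with total DC.

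The probe sequences are shown because they decide how many separate measurements there were. Capitals mark the run of 59 bases that the 2 probes of a gene have in common, and lower case marks the rest; each sequence is given 5′ to 3′ as in the scanner files.
JUNB A_70_P041671: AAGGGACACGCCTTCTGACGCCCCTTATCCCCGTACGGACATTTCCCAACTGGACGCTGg
JUNB A_70_P041672: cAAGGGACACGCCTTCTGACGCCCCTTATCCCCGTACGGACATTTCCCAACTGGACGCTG
JUND A_70_P041716: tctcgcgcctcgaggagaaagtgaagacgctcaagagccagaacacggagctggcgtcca
FOS A_70_P016316: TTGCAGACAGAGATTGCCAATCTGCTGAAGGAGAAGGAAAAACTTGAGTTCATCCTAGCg
FOS A_70_P016317: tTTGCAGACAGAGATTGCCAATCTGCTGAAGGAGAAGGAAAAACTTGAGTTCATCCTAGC
The pairs for JUNB and for FOS were thus the same stretch of transcript shifted by a single base, so each pair measured 1 site and the 5 probes covered 3 sites. Between probes of different member genes the longest run in common was 7 bases, between JUND and FOS. Whole transcripts were not searched, so binding of a probe to the transcript of another gene was not tested. Only 1 other probe on the array, an expressed sequence tag with no gene name, held a run of 15 bases of a member probe, that of JUND. GC content was 60.0% for both JUNB probes and for JUND, 45% and 43.3% for the FOS probes, and 43.3% at the median of all probes.

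All 5 probes were bright. Each was well above background in both dyes on all 5 arrays, and none was saturated or marked as an outlier, so every value below is a measured one. The Cy3 signal of the JUNB probe A_70_P041671 was 18248 and 31489 units in CD26+ cells, 40872 and 25054 units in CD26- cells (sheep 30066 before sheep 10081, here and throughout) and 7003 units in total DC on the self-hybridization. JUND gave 3068 and 2322 units in CD26+ cells, 3463 and 2574 units in CD26- cells and 630.3 units in total DC. FOS, by probe A_70_P016316, gave 12502 and 12219 units in CD26+ cells, 18072 and 3410 units in CD26- cells and 3408 units in total DC. The sorted cells were brighter than total DC for JUNB and JUND on all 4 arrays. By A_70_P016316 the FOS signal of the CD26- cells of sheep 10081 lay beside that of total DC. The other probe of each pair gave 22586 to 37479 units for JUNB, against 5923 in total DC, and 5160 to 17260 units for FOS, against 3204 in total DC. Signals of different probes are not compared as levels, since each probe binds with its own strength.

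**Figure D1:**
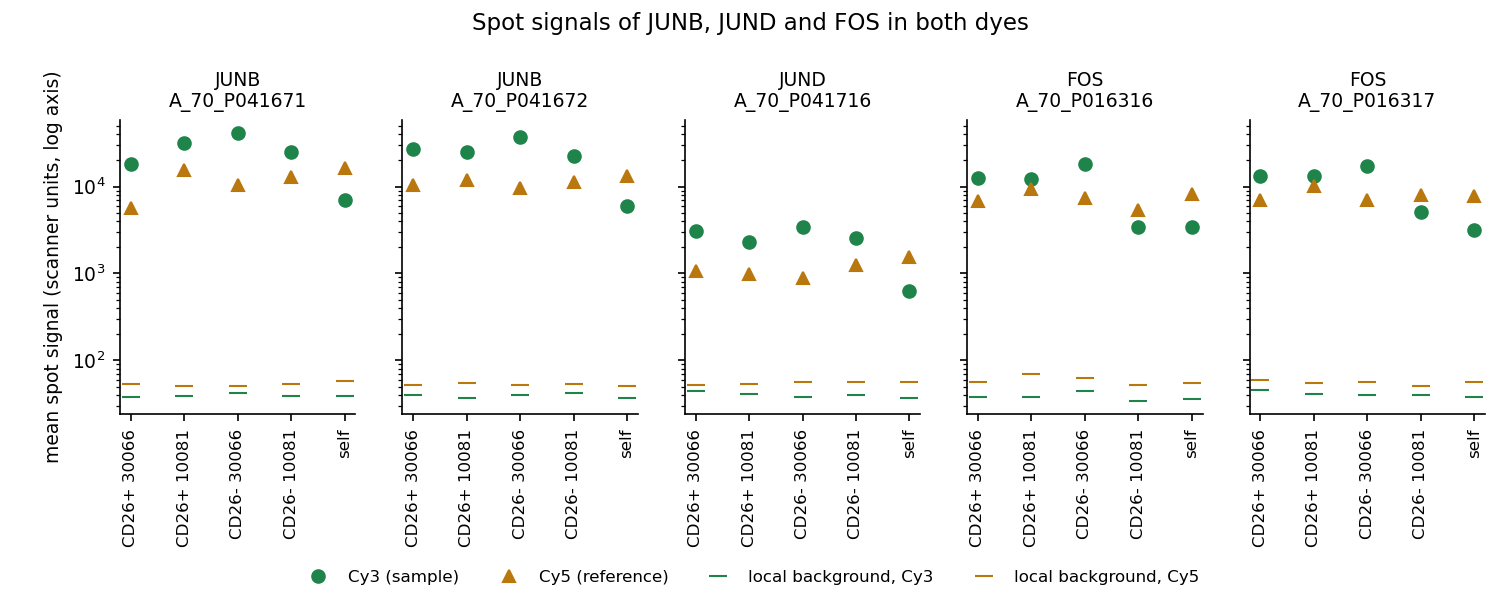
Mean spot signal in scanner units (log axis) of each member probe on the 5 arrays, for the sample dye Cy3 (circles) and the reference dye Cy5 (triangles), with the local background of each dye as dashes. Cy3 lies above Cy5 on the subset arrays and below it on the self-hybridization, except for FOS in CD26- cells of sheep 10081, where Cy3 is also below Cy5.

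Since the same reference was on every array, the Cy5 signal of a probe should be read beside its ratio. It differed between arrays by 1.35-fold to 2.91-fold, with 2.91-fold for A_70_P041671, which had its lowest Cy5 signal, 5619 units, on the CD26+ array of sheep 30066. For FOS the Cy5 signal of A_70_P016316 on the CD26- array of sheep 10081 was 5351 units, the lowest of its 5 arrays. By this probe the low FOS ratio there came with a low signal in both dyes. The other FOS probe, A_70_P016317, had 5160 units of Cy3 there, the lowest of its subset arrays. Its Cy5 signal there was 7971 units, within its range of 7032 to 10030 units over the arrays.

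The values compared from here on are log2 ratios of sample over reference after background correction and normalization within each array, where a value of 1 stands for a doubling. For JUNB, the probe A_70_P041671 stood at 2.97 and 2.46 in CD26+ cells, at 3.32 and 2.35 in CD26- cells and at 0.08 on the self-hybridization. A_70_P041672 stood at 2.71 and 2.51 in CD26+ cells, at 3.27 and 2.38 in CD26- cells and at 0.14 on the self-hybridization. The JUNB transcript was therefore higher on all 4 subset arrays than in total DC, and the CD26+ values lay between the CD26- values of the 2 sheep. Against the self-hybridization, A_70_P041671 was 7.37-fold and 5.2-fold higher in CD26+ cells and 9.43-fold and 4.82-fold higher in CD26- cells of sheep 30066 and 10081.

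JUND had log2 ratios of 2.56 and 2.34 in CD26+ cells, of 2.90 and 1.98 in CD26- cells and of -0.12 on the self-hybridization. This was nearly the pattern of JUNB. The JUND probe has no run longer than 6 bases in common with a JUNB probe, but probes were compared only with probes. Whether the JUND probe also binds the transcript of JUNB was not tested. The folds over total DC were 6.42 and 5.5 in CD26+ cells and 8.09 and 4.28 in CD26- cells.

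FOS, which forms AP-1 only together with a JUN protein, had log2 ratios of 2.14 and 1.76 in CD26+ cells, of 2.48 and 0.42 in CD26- cells and of -0.01 on the self-hybridization (A_70_P016316). The other probe gave 2.17 and 1.75 in CD26+ cells, 2.48 and 0.53 in CD26- cells and -0.02 on the self-hybridization. 3 of the 4 subset arrays thus had FOS at 3.41-fold to 5.63-fold over total DC by A_70_P016316, and the CD26- array of sheep 10081 had it at 1.35-fold. As with JUNB and JUND, the CD26- values enclosed the CD26+ values.

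**Figure D2:**
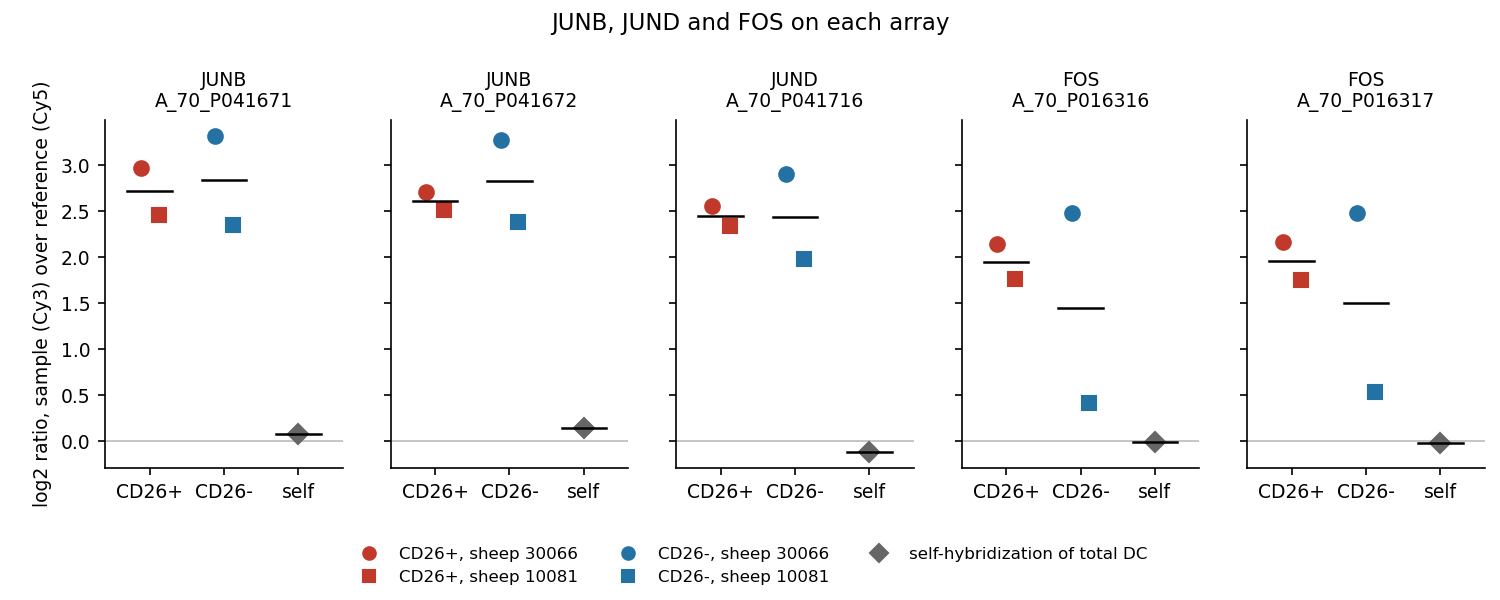
Log2 ratio of sample over reference for each member probe on each array, for CD26+ cells, CD26- cells and the self-hybridization of total DC; circles are sheep 30066, squares sheep 10081 and bars the group means. The highest value of every probe is the CD26- array of sheep 30066 and the lowest subset value is the CD26- array of sheep 10081, which for FOS is 0.42 and 0.53.

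CD26+ cells were set against CD26- cells first, the comparison that holds sorting and animal alike. JUNB, JUND and FOS did not pass the test, and none of them had the same direction in both sheep. JUNB averaged 2.71 ± 0.36 in CD26+ cells and 2.84 ± 0.68 in CD26- cells (SD, n = 2 each; A_70_P041671), a difference of -0.12 (SE 0.50, 95% interval -1.46 to 1.21). JUND averaged 2.45 ± 0.16 in CD26+ cells and 2.44 ± 0.65 in CD26- cells, a difference of 0.01 (SE 0.46, 95% interval -1.23 to 1.25). FOS averaged 1.95 ± 0.28 in CD26+ cells and 1.45 ± 1.45 in CD26- cells (A_70_P016316), a difference of 0.50 (SE 0.78, 95% interval -1.61 to 2.6). All 5 adjusted p were 1 by limma with Benjamini-Hochberg adjustment over all 13270 tested probes. This fit held no term for the animal. With the sheep as a block the differences were unchanged, with SE of 0.32 for JUNB, 0.35 for JUND and 0.55 for FOS by the same probes. Without the block, the intervals leave room for a difference of over 2-fold either way for the probes given. These arrays thus do not show that the subsets had equal levels. Across all tested probes this comparison had 0 calls (0%), with 748 at an unadjusted p under 0.05 (5.64%).

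Within a sheep, CD26+ cells had less JUNB than CD26- cells in sheep 30066, by -0.35, and slightly more in sheep 10081, by 0.11 (A_70_P041671). The values were -0.56 and 0.12 for the other JUNB probe, and -0.33 and 0.36 for JUND. FOS stood at -0.34 in sheep 30066 and at 1.33 in sheep 10081, or at -0.31 and 1.22 by its other probe. All 5 probes were thus lower in CD26+ cells in sheep 30066 and higher in sheep 10081, a combination that 23.1% of all tested probes had, where 44% had opposite directions of either kind. The 5 probes stand for 3 sites.

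CD26+ cells were then set against total DC. JUNB differed by 2.63 (SE 0.61, 95% interval 1.0 to 4.27; A_70_P041671) and by 2.47 (SE 0.55; A_70_P041672). The means were 2.71 ± 0.36 and 2.61 ± 0.14 in CD26+ cells (SD, n = 2), against 0.08 and 0.14 on the self-hybridization. JUND differed by 2.57 (SE 0.57, 95% interval 1.05 to 4.09) and FOS by 1.96 (SE 0.96, 95% interval -0.62 to 4.54; A_70_P016316). The difference was in the same direction in both sheep for all 5 probes: 2.88 and 2.38 for JUNB, 2.68 and 2.46 for JUND, 2.16 and 1.77 for FOS. In limma's fit the adjusted p was 0.34 for JUNB and for JUND and 0.525 for FOS, so none was called, as none was among the 13210 probes tested (0%), of which 1493 had an unadjusted p under 0.05 (11.3%). The unadjusted p was 0.0103 for JUNB, 0.00853 for JUND and 0.104 for FOS, and 6.06% of all tested probes were higher at an unadjusted p under 0.05. Of all tested probes, 2.94% had a larger positive difference than JUNB A_70_P041671, 3.2% a larger one than JUND and 5.96% a larger one than FOS A_70_P016316. All 5 member probes were at least 2-fold above total DC in both sheep, as were 9.89% of tested probes.

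CD26- cells were set against the same self-hybridization, so the comparison shares its control with the one above. JUNB differed by 2.75 (SE 0.61, 95% interval 1.12 to 4.39; A_70_P041671), JUND by 2.56 (SE 0.57, 95% interval 1.04 to 4.08) and FOS by 1.46 (SE 0.96, 95% interval -1.11 to 4.04; A_70_P016316). By sheep, JUNB stood at 3.24 and 2.27, JUND at 3.02 and 2.10 and FOS at 2.49 and 0.44. The adjusted p in limma's fit was 0.358 for JUNB and for JUND and 0.685 for FOS, with 0 of 13210 probes called (0%) and 1403 at an unadjusted p under 0.05 (10.6%). The unadjusted p was 0.00869 for JUNB, 0.0087 for JUND and 0.196 for FOS, and 6.27% of all tested probes were higher at an unadjusted p under 0.05. The 3 probes of JUNB and JUND were at least 2-fold higher in both sheep, as were 10.1% of tested probes; the FOS probes were so only in sheep 30066. Total DC rests on 1 array in both comparisons, whose own spread was taken from the subset arrays. The samples are bulk RNA, in which a larger share of cells with a transcript and more of it per cell cannot be told apart.

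**Figure D3:**
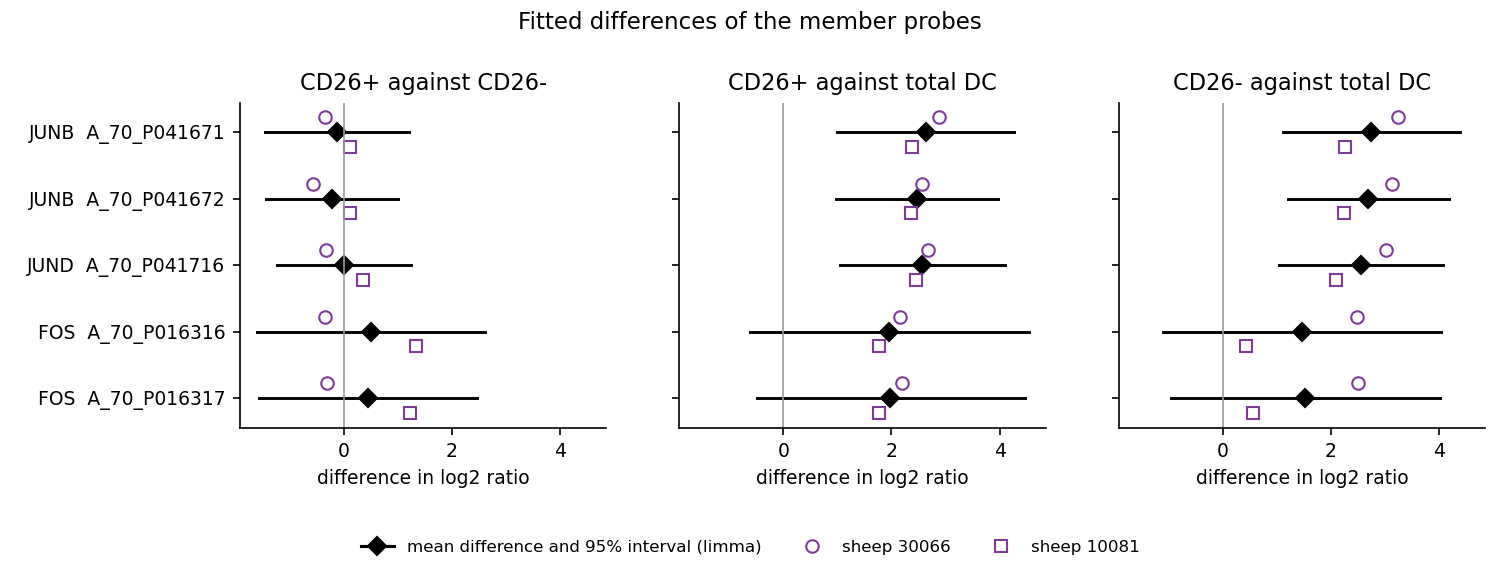
Differences in log2 ratio of each member probe for CD26+ against CD26-, CD26+ against total DC and CD26- against total DC; diamonds with bars are the fitted mean difference with its 95% interval, and open circles and squares the values in sheep 30066 and 10081. The intervals of JUNB and JUND lie above 0 against total DC before adjustment for the number of probes, those of FOS include 0, and all 5 include 0 between the subsets.

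The animals differed more in CD26- than in CD26+ cells. Sheep 30066 minus sheep 10081 was 2.06 for FOS in CD26- cells and 0.39 in CD26+ cells (A_70_P016316). For JUNB it was 0.97 in CD26- cells and 0.50 in CD26+ cells (A_70_P041671), and for JUND 0.92 in CD26- cells and 0.22 in CD26+ cells. The difference between the gaps was not tested, since each rests on 2 arrays. Over all tested probes the median size of this gap was 0.52 in CD26- cells and 0.54 in CD26+ cells, and 5.6% of probes had a gap in CD26- cells larger than that of FOS, against 27.2% for JUNB and 28.9% for JUND. The arrays of sheep 30066 lay in the same row of the slide as the self-hybridization and those of sheep 10081 in the other, so animal and slide row cannot be told apart. All 5 probes were highest on the CD26- array of sheep 30066 and lowest of the subset arrays on the CD26- array of sheep 10081; 9.15% of tested probes had this order.

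JUNB and JUND were at least 4-fold above the self-hybridization on all 4 subset arrays, which held for 1.79% of tested probes, and for 9 of the 564 named genes with a value on every array. Ordered by the lowest of their subset arrays, JUNB was 6th of these genes at 2.27, after CLDN4 at 3.63, TNF at 3.0, CLDN3 at 2.61, and ALDOA and PI3 at 2.49, and JUND was 8th at 2.10, after BMP7 at 2.19. CLDN4 and CLDN3 are tight junction proteins, TNF is an inflammatory cytokine, ALDOA is an enzyme of glycolysis, and PI3 is a protease inhibitor. A gene was placed by its brightest probe; the other probe of TNF, A_70_P006961, had a lowest subset value of 0.40. FOS was 29th at 0.56, set by the CD26- array of sheep 10081.

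**Figure D4:**
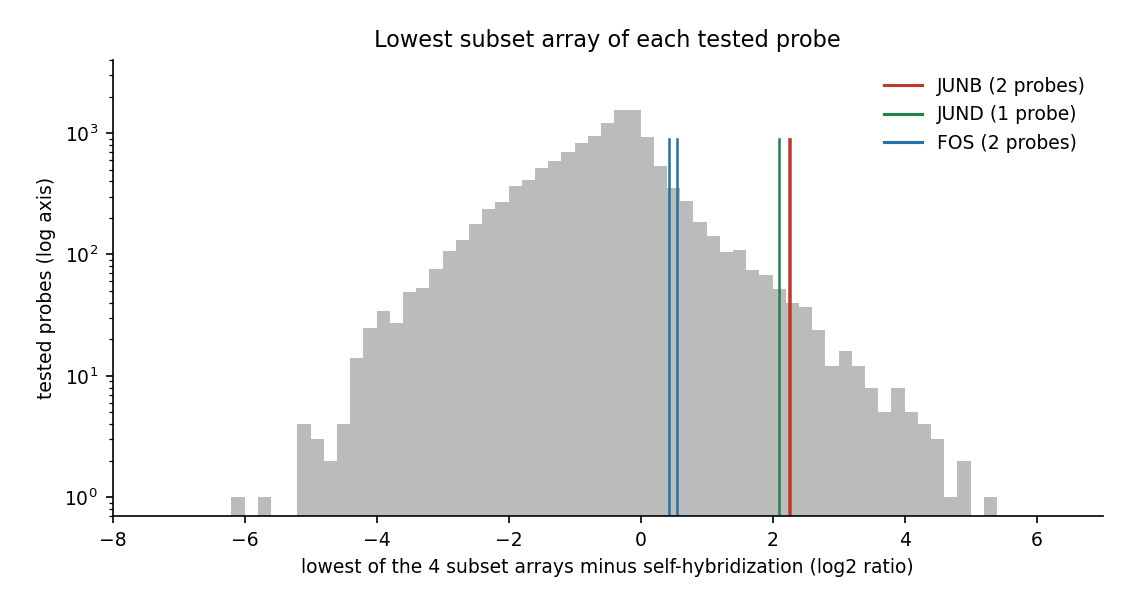
Number of tested probes (log axis) by the lowest of their 4 subset arrays, as log2 ratio minus the self-hybridization; vertical lines mark the member probes. JUNB and JUND lie between 2.10 and 2.27, in the right tail, and FOS at 0.44 and 0.56, nearer the bulk of the probes.

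The genes nearest in pattern were found by the distance between their log2 ratios over the 4 subset arrays, each minus the self-hybridization, among 563 other named genes. JUND was nearest to both JUNB probes, at distances of 0.35 and 0.24, and JUNB nearest to JUND. The next genes were CLDN3 and ITGA4, an integrin chain of leukocytes, at 1.35 to 1.63. FOS was nearest to TGFB1, a cytokine that restrains immune responses, at 0.59 and 0.56 for its 2 probes. TGFB1 stood at 2.08 and 1.37 in CD26+ cells and at 2.87 and 0.63 in CD26- cells, with the same low value on the CD26- array of sheep 10081. ITGA4 followed at 1.54 and 1.43. These distances describe 4 arrays that share their reference.

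Of 22 listed further AP-1 subunits and partners 5 were named and tested, with a median difference of -0.27 for CD26+ cells and -0.02 for CD26- cells against total DC, where the medians over all tested probes were -0.02 and -0.03. In CD26+ cells 1 was higher and 1 lower than total DC in both sheep, and in CD26- cells 2 were higher and 0 lower. Of all tested probes, 34.3% were higher and 38.8% lower in both sheep in CD26+ cells, and 33.8% higher and 38.2% lower in CD26- cells. JUN, the founding member of the family, stood at -0.21 and 0.16 in CD26+ cells and at 0.24 and 0.20 in CD26- cells by its brightest probe. ATF6, a basic leucine zipper factor that senses stress of the endoplasmic reticulum, stood at 0.21 and 0.41 in CD26+ cells and at 1.84 and 3.04 in CD26- cells, with a difference between the subsets of -2.13 (SE 0.53, adjusted p = 0.778 by limma). CREM, a cAMP-responsive regulator, stood at -1.12 (SE 1.53) between CD26+ and CD26- cells. Set against CD26- cells, 4 of the 5 had lower values in CD26+ cells of each sheep, as did 28.3% of all tested probes, with a list median of -0.25 where that of all tested probes was -0.00.

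Of 30 listed other immediate early genes 6 were tested. Their median difference was -0.34 for CD26+ cells and -0.14 for CD26- cells against total DC, and -0.31 between CD26+ and CD26- cells. MYC, a growth regulator, stood at 0.58 and 1.83 in CD26+ cells and at 1.19 and 0.58 in CD26- cells, higher than total DC on all 4 arrays. NFKBIA, the inhibitor of NF-kappa B that is itself induced by it, stood at -0.80 and -1.67 in CD26+ cells and at 0.09 and -1.52 in CD26- cells. CITED2, a transcriptional coregulator, stood at -0.94 and -1.0 in CD26+ cells and at -0.25 and -1.23 in CD26- cells. These values rest on a high log2 ratio of CITED2 on the self-hybridization, larger in size than any of them. The SD of all tested probes on that array was 0.29. Before the self-hybridization was subtracted, CITED2 was above the reference on every subset array. Its other probe had no value against total DC. In both sheep 1 gene was higher and 3, with CITED2 among them, were lower in CD26+ cells than in total DC. In CD26- cells 2 were higher and 1, CITED2, was lower, and none of the 6 was called. Of all tested probes, 34.3% were higher and 38.8% lower in CD26+ cells, and 33.8% higher and 38.2% lower in CD26- cells. No gene of the list of kinases and factors upstream of AP-1 was named on the array.

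These list values depended on which probe stood for a gene. With the mean over all probes of a gene in place of the brightest, the median of the 6 immediate early genes turned to 0.35 for CD26+ and to 0.24 for CD26- cells against total DC, and stood at -0.12 between the subsets. The probes of EGR1, ZFP36 and JUN were looked at one by one after their values had been seen. ZFP36, an immediate early gene whose protein destabilizes cytokine mRNA, had 2 probes with a longest run in common of 7 bases, shown here with the JUN probes because each pair gave different values.
ZFP36 A_70_P030386: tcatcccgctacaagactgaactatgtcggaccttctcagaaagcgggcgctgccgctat
ZFP36 A_70_P030387: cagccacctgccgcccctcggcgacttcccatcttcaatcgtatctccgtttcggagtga
JUN A_70_P016311: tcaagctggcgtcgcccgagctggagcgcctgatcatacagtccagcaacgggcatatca
JUN A_70_P016313: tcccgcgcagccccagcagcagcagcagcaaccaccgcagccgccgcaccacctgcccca
The dimmer ZFP36 probe, A_70_P030386, stood at 3.16 and 2.68 in CD26+ cells and at 3.22 and 1.67 in CD26- cells, with a Cy3 signal of 1156 to 15013 units over the arrays. The brighter one, A_70_P030387, stood at 0.13 and -1.19 in CD26+ cells and at 1.10 and -1.38 in CD26- cells, with 19877 to 83930 units. Their differences between CD26+ cells and total DC were 2.92 and -0.53. For JUN, the dimmer probe A_70_P016311, of 60.0% GC and with 119.8 to 382.1 units, stood at 1.64 and 1.0 in CD26+ cells and at 0.73 and 1.14 in CD26- cells. The brighter one, A_70_P016313, of 75.0% GC and with 44780 to 63488 units, stayed within 0.24 of the self-hybridization on every subset array.

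EGR1, a zinc finger factor induced together with FOS in many cells, had 4 probes. A_70_P041731 stood at 1.88 and 2.54 in CD26+ cells and at 3.23 and 1.5 in CD26- cells, with a Cy3 signal of only 54.5 units in total DC. A_70_P041732 stood at 1.01 and 1.38 in CD26+ cells and at 2.42 and 0.06 in CD26- cells. A_70_P059661 and A_70_P059662, which have 59 bases in common, differed from total DC by 0.22 and 0.05 in CD26+ cells, where the other probes differed by 2.21 and 1.2. Like JUNB, JUND and FOS, A_70_P041731 and A_70_P041732 were highest on the CD26- array of sheep 30066 and lowest on that of sheep 10081. Both ZFP36 probes and the CITED2 probe given above had this order too. CCN1, also on the list, had it by A_70_P036181 but not by A_70_P036182. MYC and NFKBIA did not have it by their brightest probes. Of all tested probes 9.15% had this order. The overlapping A_70_P059661 and A_70_P059662 were also highest on the CD26- array of sheep 30066. Their lowest values, -0.49 and -0.62, were on the CD26+ array of sheep 10081. Which probe of a gene followed its transcript was not tested. The close values of the paired JUNB and FOS probes, 0.03 to 0.26 and 0.00 to 0.11 apart on an array, do not address this, since each pair reads 1 site. On the array as a whole, pairs of probes to the same target were compared by the difference between CD26+ cells and total DC. They differed by a median of 0.13 where they had at least 30 bases in common (278 pairs, 1.8% of them at least 2-fold apart). The median was 0.25 with 15 to 29 bases in common (32 pairs, 12.5%) and 0.20 with under 15 (116 pairs, 7.76%). A_70_P041731 and A_70_P041732 of EGR1 have 22 bases in common.

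**Figure D5:**
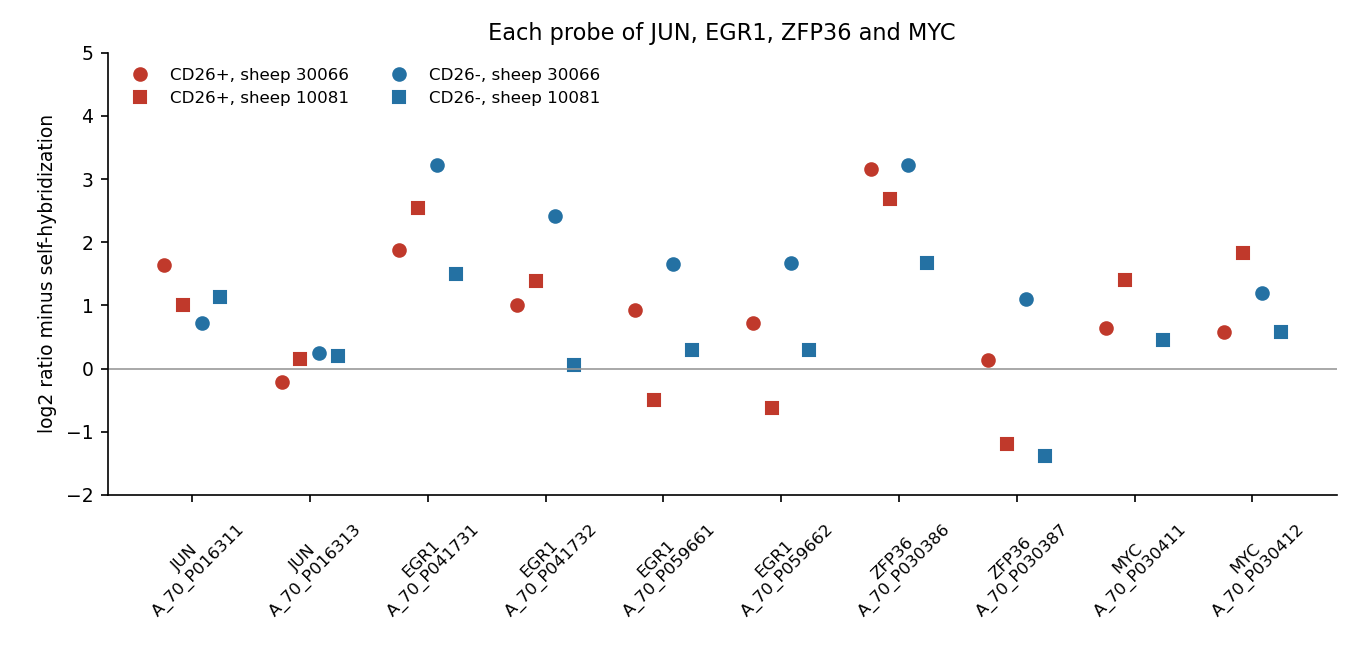
Log2 ratio minus the self-hybridization on the 4 subset arrays for every probe of JUN, EGR1, ZFP36 and MYC; red is CD26+ and blue CD26-, circles sheep 30066 and squares sheep 10081. The 2 probes of ZFP36 and of JUN differ, as do the 4 of EGR1, while those of MYC lie close; an outlier spot is left out for MYC A_70_P030411 in CD26- cells of sheep 30066.

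Of the listed heat shock and stress genes, which often rise when cells are stressed, 5 were tested, with a median of -0.52 for CD26+ and -0.74 for CD26- cells against total DC. In either subset 0 were higher and 3 were lower in both sheep, where 38.8% of all tested probes were lower in CD26+ cells and 38.2% in CD26- cells. TXN, the redox protein thioredoxin, stood at -1.59 and -3.15 in CD26+ cells and at -1.53 and -3.48 in CD26- cells. HSPA5, a chaperone of the endoplasmic reticulum, stood at -0.51 and -1.76 in CD26+ cells and at -0.17 and -1.55 in CD26- cells, and XBP1, a factor of the unfolded protein response, at -0.65 and -0.38 in CD26+ cells and at -0.78 and -0.71 in CD26- cells. These 3 lay below total DC on all 4 subset arrays. HSPA1A, an inducible heat shock protein, stood at -0.67 and 1.11 in CD26+ cells and at -0.24 and 1.52 in CD26- cells, lower than total DC in sheep 30066 and higher in sheep 10081. HSP90AA1, a chaperone of signalling proteins, went the other way between the animals, at 0.74 and -0.60 in CD26+ cells and at 1.56 and -0.62 in CD26- cells. It was highest on the CD26- array of sheep 30066 and lowest on that of sheep 10081, the order of the members. TXN had this order by the probe given but not by its other probe, and HSPA5, XBP1 and HSPA1A did not have it. Of all tested probes 9.15% had this order. The part of cell handling in the JUNB, JUND and FOS values was not tested.

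Textbook AP-1 target genes went both ways. Of 10 tested, 4 were higher and 6 lower in both sheep in CD26+ cells than in total DC, and 4 higher and 5 lower in CD26- cells, with medians of -0.25 and 0.06. Of all tested probes, 34.3% were higher and 38.8% lower in CD26+ cells, and 33.8% higher and 38.2% lower in CD26- cells. The cytokine gene TNF stood at 3.86 and 4.09 in CD26+ cells and at 3.61 and 3.0 in CD26- cells by its brighter probe, A_70_P030271. Its other probe, A_70_P006961, gave 2.42 and 2.96 in CD26+ cells and only 0.40 and 0.41 in CD26- cells, so the level of TNF in CD26- cells depended on the probe. IL12B, a chain of interleukin 12, stood at 3.94 and 4.31 in CD26+ cells and at -0.55 and 0.99 in CD26- cells. ICAM1, an adhesion molecule of activated cells, stood at 0.94 and 1.63 in CD26+ cells and at 1.11 and 1.59 in CD26- cells. Unlike TNF, which was above total DC on all 4 subset arrays by both probes, the inflammatory genes CXCL8, IL1B and IL6 were below it on all 4. CXCL8, a chemokine, stood at -4.07 and -3.82 in CD26+ cells and at -1.44 and -2.09 in CD26- cells. IL1B stood at -3.41 and -4.11 in CD26+ cells and at -1.03 and -2.56 in CD26- cells, and IL6 at -1.37 and -3.21 in CD26+ cells and at -2.13 and -2.06 in CD26- cells. TIMP1, an inhibitor of matrix proteases, differed between CD26+ and CD26- cells by -0.75 (SE 0.38).

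Of 6 DC activation genes 4 were higher in both sheep in CD26+ and 3 in CD26- cells than in total DC, with medians of 1.03 and 0.25. Of all tested probes, 34.3% were higher in both sheep in CD26+ and 33.8% in CD26- cells. Set against CD26- cells, 5 of the 6 had higher values in CD26+ cells of each sheep, as had 27.6% of tested probes. Besides IL12B these were CD86, CD80 and CD40, which costimulate T cells or receive their signals, and IRF1, an interferon-induced factor. CD80 stood at 0.92 and 2.08 in CD26+ cells and at 0.27 and 1.66 in CD26- cells, and IRF1 at 1.08 and 1.57 in CD26+ cells and at 0.16 and 0.71 in CD26- cells. CD86 was below total DC in both subsets, at -0.63 (SE 0.43) in CD26+ and -1.74 (SE 0.43) in CD26- cells, as was the cytokine gene IL15, at -0.93 (SE 0.43) in CD26+ and -0.80 (SE 0.43) in CD26- cells. None of the genes of either list was called.

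Markers of other cells differed between the arrays. FCER1A, the single DC marker of the list that could be tested, stood at -2.95 and -3.22 in CD26+ cells and at -1.59 and -1.30 in CD26- cells against total DC, while CD1B, which encodes a protein of the sort, was named but too dim to be tested, so the DC identity of the cells rests on their label. Of 14 T cell markers 7 were tested, and their median on an array was 0.02 and 1.14 in CD26+ cells and -0.11 and 0.78 in CD26- cells. Between CD26+ and CD26- cells their median was 0.09, with 3 higher and 3 lower in both sheep. Single T cell genes did not move alike. CD3D, a chain of the T cell receptor complex, stood at 0.20 and 3.29 in CD26+ cells and at 1.51 and 4.22 in CD26- cells and was not well above background in total DC. CD247, another chain of that complex, stood at -0.27 and -1.41 in CD26+ cells and at -1.89 and -2.50 in CD26- cells. CD5, a surface receptor of T cells, stood at 1.91 and 1.60 in CD26+ cells and at -0.40 and 0.78 in CD26- cells, and GATA3, a factor of helper T cells, at -1.41 and 1.14 in CD26+ cells and at 1.61 and 1.25 in CD26- cells. Where JUNB, JUND and FOS were lower in sheep 10081 than in sheep 30066 in both subsets, CD247 was too, CD3D and CD3E were higher in both, and CD5 and GATA3 differed by subset. The 4 tested monocyte and macrophage markers had medians of -0.47 and -1.09 in CD26+ cells and -0.53 and -0.12 in CD26- cells, and the 2 tested NK cell markers of -1.12 and -0.99 in CD26+ cells and -2.74 and -0.22 in CD26- cells, the last from 1 gene. The monocyte and macrophage markers did not move alike. At least 2-fold above the self-hybridization on all 4 subset arrays was 1 gene, not well above background in total DC. In both sheep 2 were lower than total DC in CD26+ cells and 1 in CD26- cells. The 3 skin stroma and epithelium markers had medians against total DC of 0.09 in CD26+ and 0.06 in CD26- cells. The gene at each of these medians was not well above background in that subset or in total DC, so they do not measure such cells. The 1 erythroid marker differed by 0.10 in CD26+ and 0.04 in CD26- cells. No marker of B cells or neutrophils was named on the array. The part of other cells in the results was not tested.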

How the data were processed

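The members and gene lists were chosen with earlier results of these data known. Per the labels' protocols, 200 ng of RNA (RNeasy Micro kit) were amplified; the sample took Cy3 and the reference Cy5, and dyes were not swapped. The deposited scanner files give linear, unnormalized spot intensity and local background; the file headers name Feature Extraction 9.5.3.1, and the deposited log ratio is a log10 value of Cy5 over Cy3. The authors' deposited value table is a log2 ratio. It equals the scanner's ratio turned to Cy3 over Cy5 within 5e-10, with column medians of -0.068 to 0.015, and so adds no separate alternative.

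Mean signals were background-corrected by normexp (offset 50) without the spots whose local background passed 5 times that of the array median in either dye, then normalized by loess within arrays (limma 3.58.1, R 4.3.3). The 536 control spots had weight 0, outlier spots (49 to 157 an array) were left out, and spots of a probe were averaged. A probe was tested if its Cy3 signal was well above background on 2 or more arrays, as for 13270 of 15008 probes; 1738 were too dim. On an array 80.8% to 89.2% of probes passed that mark. The SD of the log2 ratios was 1.18 to 1.42 on subset arrays and 0.29 on the self-hybridization, and Cy5 correlated between arrays with r of 0.987 or more.

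3 group means were fitted to the 5 arrays with limma's lmFit and eBayes (2 residual and 2.35 prior degrees of freedom), with Benjamini-Hochberg adjustment over all tested probes and calls at an adjusted p under 0.05; the fit was tested on simulated data. All arrays were on 1 slide, so no slide or scan batch could be tested. The labels pair both subsets by animal, and the deviations from the group means correlated with r = 0.33 between the arrays of an animal.

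Symbols were found for 1179 probes of 676 genes, in the files or in sheep RefSeq names (assembly ARS-UI_Ramb_v3.0, names only); no genome was used, so no positions are given. The brightest probe stands for a gene. From each list, the rule names up to 4 genes with the largest difference between subsets and up to 4 with the largest difference from total DC, of the same sign in both sheep; HSP90AA1, ICAM1 and the single probes of JUN, EGR1, ZFP36 and TNF, were named after their values were seen. Marker lists other than those of DC and T cells are given by their medians, and 1 listed gene is not reported here. Alternatives were other background models, median centring, the scanner's ratio, other filters on dim probes, the sheep as a block, and each subset array left out.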

Additional observations from a re-analysis of the deposited data

Results flagged for a closer look

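CD26+ and CD26- cells differed in opposite directions in the sheep for all 5 probes, with the difference between the sheep not tested. In sheep 30066, CD26+ minus CD26- was -0.35 for JUNB A_70_P041671, -0.56 for JUNB A_70_P041672, -0.33 for JUND, -0.34 for FOS A_70_P016316 and -0.31 for FOS A_70_P016317. In sheep 10081 it was 0.11 and 0.12 for the JUNB probes, 0.36 for JUND, and 1.33 and 1.22 for the FOS probes. Of all tested probes 44% had opposite directions in the sheep, and 23.1% had this combination, so the pattern is common on these arrays; FOS stands apart from the other members in its size in sheep 10081 only, where the CD26- array had the low value.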

How the results depend on the processing

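No probe was called in any of the 3 comparisons under any of the 11 alternatives run, and the adjusted p of the members stayed at or above 0.216. All 5 probes remained higher in both subsets than in total DC. Over the settings that kept all arrays, the differences from total DC ranged from 1.56 to 2.82 in CD26+ cells and from 1.18 to 2.89 in CD26- cells. Fitting the animal as a replicate block moved no value and changed no call: for FOS A_70_P016317 the difference of 1.98 from total DC in CD26+ cells had an unadjusted p of 0.0463 and an adjusted p of 0.277, and for JUNB and JUND the adjusted p was 0.216 in CD26+ and 0.235 in CD26- cells. This fit set total DC midway between the 2 sheep and took the spread between these animals out of the error. For that FOS probe the SE fell from 0.92 to 0.63. Total DC was labelled as from other animals, so the smaller p against total DC do not cover that spread. The block raised the probes at an unadjusted p under 0.05 to 2324 for CD26+ against total DC, to 2091 for CD26- against total DC and to 1126 between the subsets. With normexp fitted on all spots that number was 636 for CD26- against total DC, where it was 1403, and JUND stood at 0.49 between the subsets; the cause was not tested. With median centring JUND turned to -0.10 between the subsets. Leaving out 1 subset array, with the lone array assumed to vary like the others, gave CD26+ minus CD26- values of -0.61 to 0.36 for JUNB A_70_P041671, -0.66 to 0.22 for JUNB A_70_P041672, -0.45 to 0.47 for JUND, -0.53 to 1.53 for FOS A_70_P016316 and -0.52 to 1.43 for FOS A_70_P016317. Both FOS probes were below 0, at -0.53 and -0.52, once sheep 10081's CD26- array was omitted, and its difference from total DC in CD26- cells ranged from 0.44 to 2.50. Omitting sheep 30066's CD26- array put JUNB above 0, at 0.36 and 0.22, and omitting sheep 10081's CD26+ array put A_70_P041671 at 0.13. JUND fell below 0 on omission of sheep 30066's CD26+ array (-0.10) or sheep 10081's CD26- array (-0.45). Against total DC, leaving out an array gave 1.77 to 2.88 in CD26+ cells and 0.44 to 3.24 in CD26- cells. The mean over the probes of a gene, an alternative chosen after seeing the data, turned the median of the other immediate early genes to 0.35 for CD26+ and 0.24 for CD26- cells against total DC. The number of arrays, and the single array of total DC, limit every value.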
